A study of Homo sapiens with 6 samples.

Results

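Aminoacyl-tRNA synthetases are the enzymes that load each amino acid onto its transfer RNA. Human cells carry a cytosolic set and a largely separate mitochondrial set encoded in the nucleus (names ending in ARS2). They also carry scaffold proteins that hold several cytosolic enzymes together in the multisynthetase complex. A list of 33 genes was examined: 19 cytosolic synthetase genes, 11 mitochondrial synthetase genes and 3 scaffold proteins. Each was looked up by its Entrez gene identifier in the array annotation, which still used the older symbols without the final 1. A gene counted as found when at least 1 probe set carried its symbol alone, and its brightest probe set, by the mean of the 6 arrays, stood for it. By this rule 26 of the 33 were found, namely 16 cytosolic enzymes, 9 mitochondrial enzymes and the scaffold protein AIMP1, out of 11963 genes on the array. The remaining 7 were not analysed here: FARSB, EARS2, AIMP2 and EEF1E1 had no probe set under their symbol, while MARS1, QARS1 and TARS2 had only probe sets that carried several symbols.

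The cells were A549, an established human lung adenocarcinoma line with alveolar epithelial features. RNA was hybridised to 6 Affymetrix arrays in 3 groups of 2. The first group was transfected with a pCMV5 plasmid that encodes human PIAS3, a protein inhibitor of the transcription factor STAT3. The second group was transfected with an siRNA against STAT3. The third group served as the control and received neither. Per the labels' protocols all cells were seeded for 12 h with 10% FBS, and per the series' design text the cells of all groups were kept without serum and then given EGF, a growth factor that signals through the EGF receptor. RNA of the transfected cells was taken 48 h after transfection. The labels name no empty-plasmid or non-targeting siRNA group, so the act of transfection and the agent cannot be told apart. Nothing in the labels says that the arrays of a group had cultures of their own, so a p-value here covers only array-to-array spread, possibly technical in part. In bulk RNA, fewer cells of a kind and less RNA per cell also cannot be told apart.

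Several synthetase genes are textbook targets of ATF4, the transcription factor that is made when uncharged transfer RNA or unfolded protein activates an eIF2alpha kinase. WARS1, the cytosolic tryptophanyl enzyme, is known as an interferon-induced gene. The lung epithelium, like other tissues, uses the whole cytosolic set for every round of protein synthesis.

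Array quality bears on what follows. Median log2 levels of the 6 arrays lay between 6.63 and 6.72. PIAS3 replicate 1 stood apart: its interferon-induced genes, 17 of 18 of which were measured, had a median log2 difference of 2.69 from the control mean, against -0.02 in PIAS3 replicate 2. In PIAS3 replicate 1 the median of the 12 poly-A spike-in probe sets lay 1.44 above the control mean, and the actin 3' minus 5' log2 signal was 0.43, against 0.10 and 0.12 on the control arrays. Of the lung epithelial markers (9 of 10 measured), the keratins KRT8 (12.39 to 12.62) and KRT18 (13.60 to 13.79) were high on all arrays, while others differed between groups: in PIAS3 cells against control the list ran from -1.91 for KRT19 to 1.09 for CDH1 around a median of -0.03, with 0 past the adjusted threshold, and KRT19 was also the lowest of the list in siRNA cells. Their summed linear level, to which KRT8 and KRT18 gave the most, was 20147 to 23704, against 479 to 557 for 8 of 10 leukocyte, 698 to 816 for 8 of 8 fibroblast and 234 to 258 for 6 of 7 endothelial markers. As a check of the labels, STAT3 read 10.18 and 9.70 on the PIAS3 arrays and 10.23 and 9.94 on the siRNA arrays, against 10.50 and 10.43 on the control arrays. Its difference from control was -0.38 ± 0.18 in siRNA cells (adjusted p of 0.9998 in limma) and -0.53 ± 0.18 in PIAS3 cells (SE). The transfected groups overlapped, so STAT3 did not tell them apart. The PIAS3 probe set read 7.78 and 7.72 on the PIAS3 arrays, against 7.70 and 7.71 on the control arrays, so the plasmid's transcript was not seen there. Whether that probe set covers the transcript the plasmid encodes was not tested. The arrays of both transfected groups thus carry their names from their labels alone, and so does every direction given for them.

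Promoters are shown first because 2 known control elements fall within the family. The window searched ran from 250 bases before to 50 bases after the start of each RefSeq promoter entry on GRCh38.p14. A gene can have several entries, and it counted as holding a motif when any of them did. Of the 33 genes, 30 had an entry (LARS1, VARS1 and YARS1 did not). The composite element read by ATF4 with C/EBP partners (TGATGNAA, either strand) was present in 7 of 16 cytosolic genes, in 1 of 11 mitochondrial genes (YARS2) and in 0 of 3 scaffold genes. It was present in 4.46% of the 27305 genes with a promoter entry. A core of the interferon-stimulated response element (GAAANNGAAA, either strand) was found in WARS1 and EARS2 and in 4.38% of all genes. A core of the STAT binding site called GAS (TTCNNNGAA, a palindrome) was found in CARS1, TARS1, WARS1 and WARS2 and in 9.38% of all genes. A match of letters is a description, not a site in use. The lines below give the stretch around the composite element in the 6 measured cytosolic genes that hold it (MARS1 is the other), and around the interferon element in WARS1. All are 5' to 3' on the gene's strand, with the motif in capitals. The composite element lies on the opposite strand in all but NARS1.
AARS1 (chr16:70289661-70289718, minus strand): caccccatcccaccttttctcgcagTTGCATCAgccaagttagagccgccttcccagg
CARS1 (chr11:3057394-3057450, minus strand): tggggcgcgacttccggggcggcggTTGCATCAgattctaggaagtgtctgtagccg
GARS1 (chr7:30594820-30594877, plus strand): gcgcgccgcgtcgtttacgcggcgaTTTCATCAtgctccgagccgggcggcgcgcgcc
IARS1 (chr9:92293678-92293735, minus strand): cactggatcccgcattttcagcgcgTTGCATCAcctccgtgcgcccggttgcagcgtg
NARS1 (chr18:57621807-57621847, minus strand): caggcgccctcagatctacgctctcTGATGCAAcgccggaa
TARS1 (chr5:33440942-33440994, plus strand): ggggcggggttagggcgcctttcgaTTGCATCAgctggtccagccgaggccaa
WARS1 (chr14:100375368-100375427, minus strand): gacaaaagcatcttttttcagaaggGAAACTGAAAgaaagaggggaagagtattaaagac

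Positions are counted from the start of the promoter entry that held the motif. In GARS1, TARS1 and WARS1 that entry starts inside the gene, downstream of the gene's outermost start. The first base of the composite element lay 187 bases before the entry start in AARS1 and 33 before it in GARS1. It lay 13 bases before it in IARS1, 2 before it in CARS1, 3 after it in TARS1 and 15 after it in NARS1. The 5 genes other than AARS1 thus held the element close to the start of that entry. GARS1 differs from the others in the single free base of the motif. In WARS1 the interferon element began 55 bases before the start of its entry.

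The first comparison set PIAS3-transfected cells against control cells. All 16 measured cytosolic synthetases had a lower mean in PIAS3 cells, with log2 differences of -0.54 to -0.05 and a median of -0.23, beside a median of 0.00 over all 11963 genes, of which 50.9% lay below 0. On that count 15 of 16 lay below 0 after a further quantile normalization (AARS1 above), 13 of 16 after cyclic loess normalization (AARS1, NARS1 and SARS1 above) and 10 of 16 without PIAS3 replicate 1. The count uses each gene's brightest probe set, and the other EPRS1 probe sets gave -0.58 and 0.12. With the mean of each gene's probe sets 16 of 16 lay below 0. The 9 mitochondrial enzymes divided into 6 below and 3 above 0, with a median of -0.07. No member passed an adjusted p of 0.05 in limma (Benjamini-Hochberg over all probe sets), where 0.092% of genes were called lower and 0.0334% higher. At an unadjusted p under 0.05, 3 cytosolic enzymes and 1 mitochondrial enzyme were lower and none was higher, against 7.44% of all genes lower and 7.13% higher. The arrays of the 2 groups did not overlap, with PIAS3 lower, for 6 of 16 cytosolic and 2 of 9 mitochondrial enzymes, against 23.7% of all genes. They did not overlap in the other direction for 1 mitochondrial enzyme, IARS2, against 22.4% of all genes. The lowest adjusted p of any member was 0.197.

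**Figure D1:**
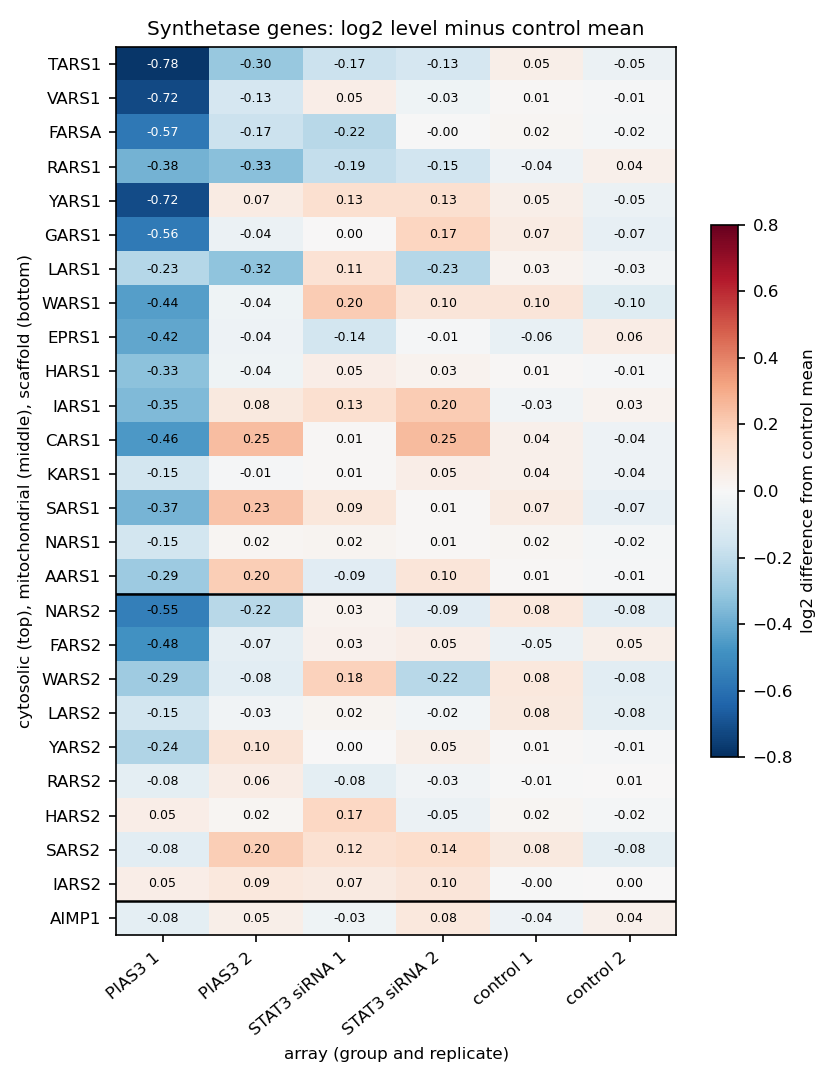
Log2 difference of each of the 26 measured genes from the control mean, by array, with genes in rows by subset and the PIAS3, STAT3 siRNA and control arrays in columns. The column of PIAS3 replicate 1 is below the control mean for all 16 cytosolic enzymes, with differences of -0.78 to -0.15, and in PIAS3 replicate 2 they lie between -0.33 and 0.25.

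The shift of the cytosolic enzymes was uneven between the PIAS3 arrays. In PIAS3 replicate 1 the median cytosolic enzyme lay 0.40 below the control mean (-0.40), and all 16 lay below both control arrays, against 43.8% of all genes. In PIAS3 replicate 2 the median was -0.04, with 6 of 16 below both control arrays, against 37.8% of all genes, and 5 above both, against 39.4% of all genes. None lay above both control arrays on PIAS3 replicate 1, against 39.5% of all genes. On the siRNA arrays 5 and 4 of 16 lay below both control arrays, against 32.1% and 44% of all genes, and 8 and 7 lay above both, against 41.8% and 33.7%. Of the 9 mitochondrial enzymes, 7 lay below and 2 above both control arrays on PIAS3 replicate 1, against 43.8% and 39.5% of all genes. Bright probe sets in general read lower on PIAS3 replicate 1: among the 3972 genes whose mean level over all arrays lay in the range of the cytosolic enzymes (8.33 to 12.51), the median was -0.13, with quartiles of -0.34 and 0.09, and 60.1% lay below both control arrays. In PIAS3 replicate 2 that median was 0.00. The raised interferon genes, the spike-in signal and the actin 3' minus 5' signal of PIAS3 replicate 1 moved with its low synthetase values, and their part in the result was not tested.

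The replicate that stood apart also differed from its own partner. PIAS3 replicate 1 read below PIAS3 replicate 2 for 15 of 16 cytosolic enzymes, with a median difference of -0.42 and LARS1 as the exception. Over all genes 54.4% read lower on PIAS3 replicate 1 than on replicate 2, and 69.2% did so in the level range of the cytosolic enzymes. For 8 of 9 mitochondrial enzymes PIAS3 replicate 1 was the lower array, with a median difference of -0.20 and HARS2 as the exception. Without PIAS3 replicate 1 the median difference of PIAS3 cells from control was -0.04 for cytosolic and 0.02 for mitochondrial enzymes, and without PIAS3 replicate 2 it was -0.40 and -0.15.

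**Figure D2:**
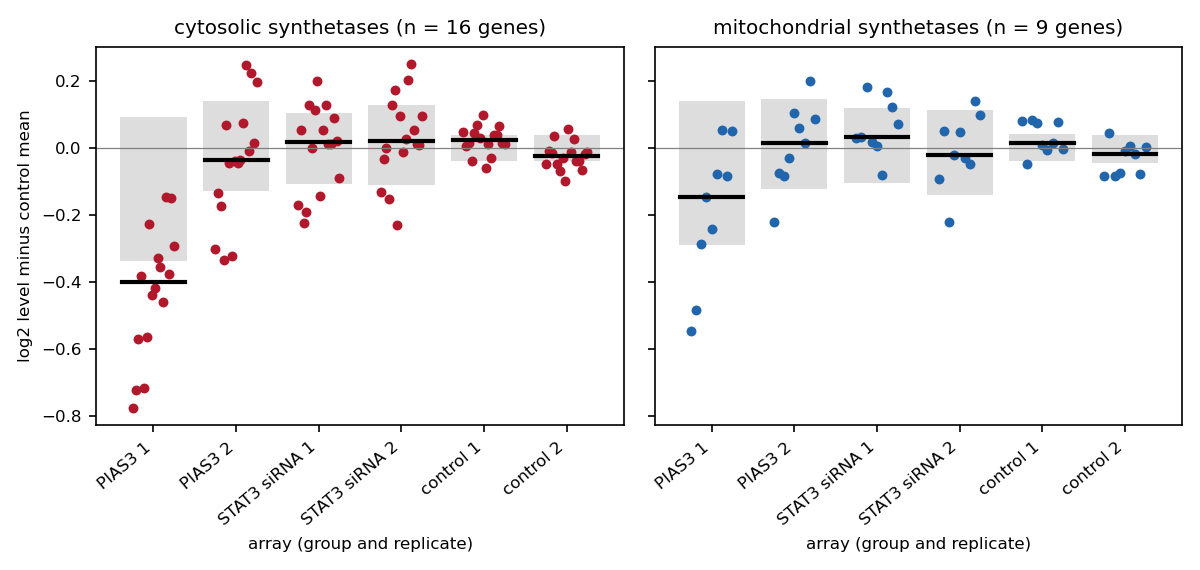
Log2 difference from the control mean of the 16 cytosolic and the 9 mitochondrial enzymes on each array, 1 point per gene, with the median as a line and PIAS3 arrays left of STAT3 siRNA and control arrays. PIAS3 replicate 1 has a cytosolic median of -0.40 and a mitochondrial median of -0.15, and the medians of the other arrays lie between -0.04 and 0.03.

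Among the cytosolic enzymes, TARS1, which charges threonine, showed the largest difference. TARS1 (Entrez gene 6897) read 10.33 and 10.81 on the PIAS3 arrays and 10.94 and 10.98 on the siRNA arrays, against 11.16 and 11.06 on the control arrays, on the log2 scale. Both PIAS3 arrays lay below all 4 other arrays, replicate 1 farther than replicate 2. The mean was 10.57 ± 0.33 in PIAS3 cells and 11.11 ± 0.07 in control cells (SD, n = 2 each), a log2 difference of -0.54 ± 0.16 (SE) or 1.45-fold lower, with an unadjusted p of 0.0117 and an adjusted p of 0.209 in limma. In the siRNA arrays the difference from control was -0.15 ± 0.16 (SE).

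RARS1, the arginyl enzyme of the multisynthetase complex, was low in both PIAS3 arrays to nearly the same extent. RARS1 (Entrez gene 5917) read 9.78 and 9.83 on the PIAS3 arrays and 9.97 and 10.01 on the siRNA arrays, against 10.13 and 10.20 on the control arrays. The 3 groups did not overlap, with the siRNA arrays between the others. The log2 difference of PIAS3 cells from control was -0.36 ± 0.10 (SE), or 1.28-fold lower, with an unadjusted p of 0.00955 and an adjusted p of 0.197 in limma. For the siRNA cells it was -0.17 ± 0.10 (SE), with an unadjusted p of 0.137. RARS1 thus depended less on 1 array than TARS1 did: its differences from the control mean were -0.38 in PIAS3 replicate 1 and -0.33 in PIAS3 replicate 2, against -0.78 and -0.30 for TARS1.

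FARSA encodes the alpha subunit of the cytosolic phenylalanyl enzyme, whose beta subunit FARSB was not measured here. FARSA (Entrez gene 2193) read 8.49 and 8.88 on the PIAS3 arrays and 8.84 and 9.06 on the siRNA arrays, against 9.07 and 9.04 on the control arrays. The PIAS3 arrays lay below the control arrays but overlapped the siRNA arrays. The difference of PIAS3 cells from control was -0.37 ± 0.16 (SE), or 1.29-fold lower, with an unadjusted p of 0.0465 and an adjusted p of 0.351 in limma, and the second FARSA probe set gave -0.27.

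Of the mitochondrial enzymes, NARS2, which charges asparagine, stood farthest from control. NARS2 (Entrez gene 79731) read 8.58 and 8.91 on the PIAS3 arrays and 9.16 and 9.04 on the siRNA arrays, against 9.21 and 9.04 on the control arrays. Both PIAS3 arrays lay below the other 4, while the siRNA and control arrays overlapped. The difference of PIAS3 cells from control was -0.38 ± 0.14 (SE), or 1.30-fold lower, with an unadjusted p of 0.0291 and an adjusted p of 0.291 in limma. The cytosolic asparaginyl enzyme NARS1 gave -0.07 ± 0.11 (SE) in the same comparison.

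These 4 genes are the members with an unadjusted p under 0.05 and arrays that did not overlap. Without PIAS3 replicate 1 their adjusted p-values in limma were 0.438 for TARS1, 0.381 for RARS1, 0.728 for FARSA and 0.628 for NARS2. Without PIAS3 replicate 2 the lowest differences of any member were -0.78 for TARS1, -0.72 for VARS1 and -0.72 for YARS1. The second VARS1 probe set was -0.08 from the control mean on PIAS3 replicate 1 and -0.24 on PIAS3 replicate 2. The VARS1 value thus depended on the probe set. A p-value from a fit with a lone PIAS3 array assumes that this array varies like the other groups. The fits with all arrays likewise use 1 spread per probe set for all groups. Over all probe sets the SD of the difference between partner arrays was 0.35 for PIAS3, 0.25 for siRNA and 0.15 for control. The SEs and p-values given for PIAS3 cells can thus understate the spread of that group.

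Many amino acids have a separate enzyme in each compartment, and the values of such pairs were uneven. In PIAS3 cells against control the difference was -0.18 ± 0.13 for HARS1 and 0.04 ± 0.12 for HARS2, -0.14 ± 0.15 for IARS1 and 0.07 ± 0.10 for IARS2, and -0.07 ± 0.19 for SARS1 and 0.06 ± 0.13 for SARS2 (SE). For leucine it was -0.27 ± 0.14 for LARS1 and -0.09 ± 0.11 for LARS2, for tyrosine -0.32 ± 0.23 for YARS1 and -0.07 ± 0.13 for YARS2, and for tryptophan -0.24 ± 0.16 for WARS1 and -0.18 ± 0.16 for WARS2. For phenylalanine it was -0.37 ± 0.16 for FARSA and -0.28 ± 0.15 for FARS2. By the brightest probe sets the cytosolic member had the lower value in each of these 7 pairs. For phenylalanine the order turned on the probe set. The second FARSA probe set gave -0.273, beside -0.278 for FARS2, whose other probe sets gave -0.17 and -0.03. Asparagine ran the other way, as given above, and so, narrowly, did cysteine. On PIAS3 replicate 2 alone the order turned for serine, at 0.23 for SARS1 and 0.20 for SARS2 from the control mean, and for tryptophan, at -0.04 for WARS1 and -0.08 for WARS2. For cysteine, the mitochondrial enzyme CARS2 was not among the listed members but was measured with the other genes for charging transfer RNA. Its difference was -0.11 ± 0.14, beside -0.10 ± 0.22 for CARS1 (SE). The second CARS1 probe set gave a lower value, -0.20 ± 0.21. CARS1 and CARS2 lay at -0.46 and -0.30 from the control mean on PIAS3 replicate 1, and at 0.25 and 0.07 on PIAS3 replicate 2. The gap within a pair was not tested. RARS2, the mitochondrial arginyl enzyme, read 3.51 to 3.65, within the range of 3.26 to 3.93 given by 3 control probe sets for transcripts absent from human cells, so a difference could not be measured for it. HARS1 and HARS2 are similar in sequence, and whether their probe sets share signal was not tested.

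The median of the cytosolic differences minus that of the mitochondrial ones was -0.17 for PIAS3 against control. By array this gap from the control mean was -0.25 in PIAS3 replicate 1 and -0.05 in PIAS3 replicate 2, -0.02 and 0.04 on the siRNA arrays, and 0.01 and -0.01 on the control arrays. It was thus largest on PIAS3 replicate 1. Genes in the level range of the mitochondrial enzymes (6.52 to 11.22, without RARS2) had a median of -0.07 on that array, against -0.13 for those in the cytosolic range.

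The remaining cytosolic enzymes gave smaller or more variable values. VARS1, for valine, gave -0.43 ± 0.19 (SE) with an unadjusted p of 0.0526 in limma, and its second probe set gave -0.16 ± 0.12. GARS1, for glycine, gave -0.30 ± 0.18 (SE). The differences of AARS1, CARS1, KARS1 and NARS1, for alanine, cysteine, lysine and asparagine, lay between -0.10 and -0.05. The second probe sets of CARS1 and KARS1 gave lower values, -0.20 ± 0.21 and -0.22 ± 0.12 (SE). EPRS1, the bifunctional enzyme for glutamate and proline, gave conflicting values: its brightest probe set gave -0.23 ± 0.15, and the other probe sets gave -0.58 ± 0.19 and 0.12 ± 0.13 (SE), so no direction can be given for it. By structural class, the median was -0.27 for the 7 class I enzymes and -0.13 for the 8 class II enzymes. It was -0.23 for the 5 measured enzymes of the multisynthetase complex and -0.24 for the 11 outside it. The complex's scaffold protein AIMP1 (Entrez gene 9255) read 9.59 and 9.71 on the PIAS3 arrays and 9.63 and 9.75 on the siRNA arrays, against 9.63 and 9.71 on the control arrays, with a difference of -0.02 ± 0.11 (SE) and an adjusted p of 0.975 in limma for PIAS3 against control. All groups overlapped for AIMP1.

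**Figure D3:**
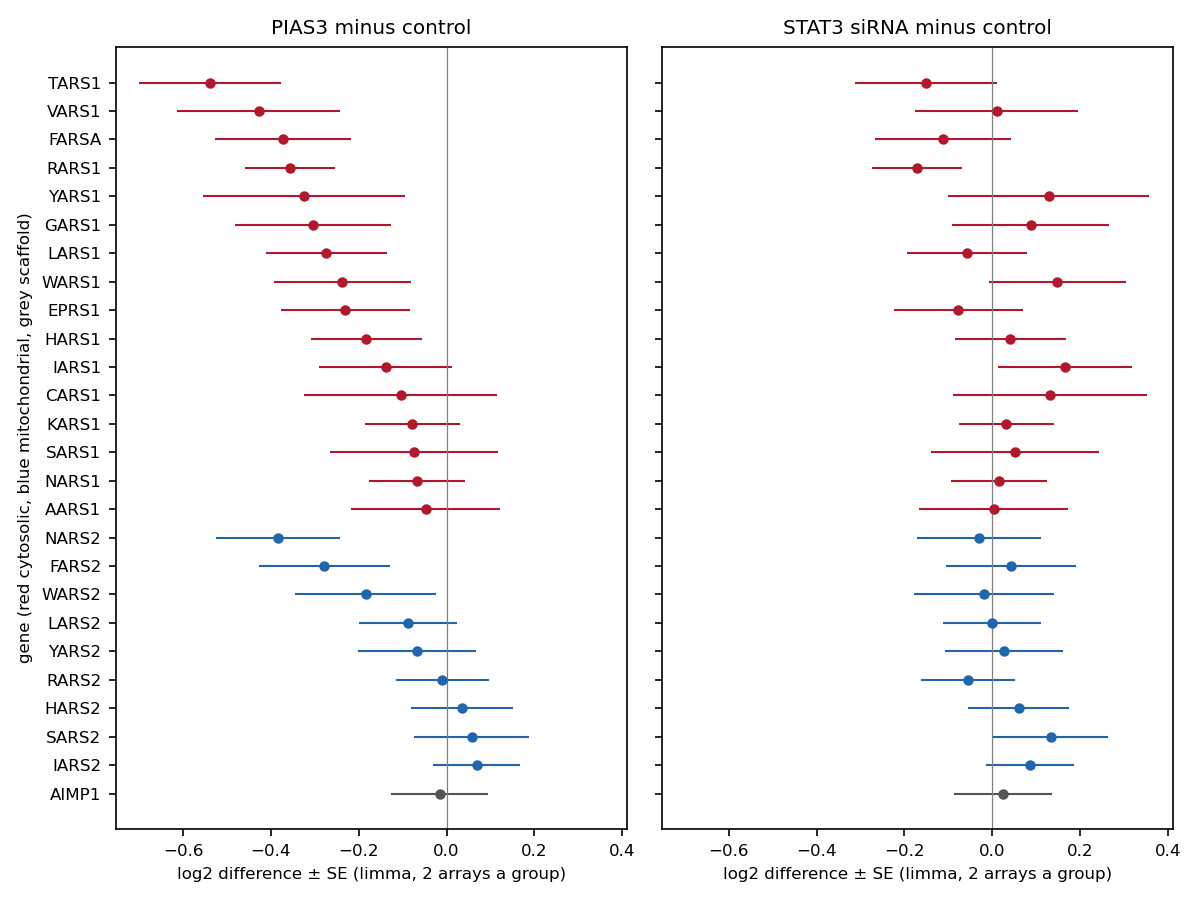
Log2 difference with its standard error for each of the 26 measured genes in PIAS3 and in STAT3 siRNA cells, each against the shared control arrays. All 16 cytosolic enzymes lie below 0 in PIAS3 cells (-0.54 to -0.05, or 13 of 16 below 0 after cyclic loess normalization), while in siRNA cells they lie on both sides of 0 (-0.17 to 0.17). Values are from each gene's brightest probe set, and for EPRS1 the probe sets differed in sign in PIAS3 cells.

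The second comparison set STAT3 siRNA cells against the same control arrays. The synthetases lay near control. Of the cytosolic enzymes, 11 of 16 lay above 0, with a median of 0.02 and a range of -0.17 (RARS1) to 0.17 (IARS1), where 49.5% of all genes lay above 0. Of the mitochondrial enzymes, 5 of 9 lay above 0, with a median of 0.03. No member had an unadjusted p under 0.05 in limma, where 2.32% of all genes were higher and 3.06% lower, and the lowest was 0.137. By the adjusted p, 0.00836% of all genes were lower and 0 higher, so almost no gene on the array was called. The arrays did not overlap for 5 of 26 members higher and 3 lower, against 19.4% and 19.5% of all genes. IARS1 and IARS2, for isoleucine in the cytosol and the mitochondrion, were among the higher ones, at 0.17 ± 0.15 and 0.09 ± 0.10 (SE).

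Both transfected groups were also compared with each other. In PIAS3 cells against siRNA cells all 16 cytosolic enzymes lay below 0 (14 of 16 after cyclic loess normalization and 11 of 16 without PIAS3 replicate 1), with a median of -0.23 and a range of -0.45 to -0.05, and 8 of 9 mitochondrial enzymes did, with a median of -0.09, where 50.4% of all genes lay below 0. No member passed the adjusted threshold in limma, nor did any of the 11963 genes, and the lowest adjusted p of a member was 0.609. At an unadjusted p under 0.05, 4 members were lower, TARS1, VARS1, WARS1 and NARS2, and none higher, against 3.83% of all genes lower and 4.19% higher. Arrays did not overlap, with PIAS3 lower, for 12 of 26 members, against 17.5% of all genes, and for none with PIAS3 higher, against 17%. On PIAS3 replicate 1 the cytosolic median lay 0.44 below the siRNA mean (-0.44), and on PIAS3 replicate 2 it was -0.07. The difference between PIAS3 and siRNA cells thus also came mostly with replicate 1.

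WARS1 was examined on its own because interferon induces it and PIAS3 replicate 1 carried a raised interferon signature. WARS1 (Entrez gene 7453) read 9.53 and 9.93 on the PIAS3 arrays and 10.17 and 10.07 on the siRNA arrays, against 10.07 and 9.87 on the control arrays. PIAS3 replicate 1 was the lowest of the 6, and PIAS3 replicate 2 lay between the control arrays. The difference was -0.24 ± 0.16 (SE, adjusted p of 0.579 in limma) for PIAS3 against control, 0.15 ± 0.16 for siRNA against control and -0.39 ± 0.16 (unadjusted p of 0.0412, adjusted p of 0.609) for PIAS3 against siRNA. The second WARS1 probe set read 8.52 and 8.94 on the PIAS3 arrays and 9.25 and 9.25 on the siRNA arrays, against 9.01 and 9.09 on the control arrays. That probe set gave the same order of groups, with -0.32 ± 0.15 for PIAS3 against control (SE).

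Most other interferon-induced genes lay above control on that array, and IFIT1 and IRF1 were chosen among them after their values were seen. IFIT1, an antiviral RNA-binding protein, read 12.36 and 4.57 on the PIAS3 arrays, against 4.18 and 4.32 on the control arrays. OAS1, which makes an RNase-activating second messenger, read 10.92 and 7.47 on the PIAS3 arrays, against 6.34 and 6.24 on the control arrays. The transcription factor IRF1, which responds to interferon gamma, read 9.74 and 7.83 on the PIAS3 arrays, against 7.91 and 7.94 on the control arrays. Of the 17 measured interferon genes, 15 lay above both control arrays on PIAS3 replicate 1, against 39.5% of all genes. The exceptions were GBP2, a guanylate-binding protein, at 5.57 against 5.72 and 5.52 on the control arrays, and the chemokine CXCL10, at 5.35 against 4.98 and 5.37. The list's summed linear level was 23106 on PIAS3 replicate 1 and 1771 on PIAS3 replicate 2, against 1759 and 1743 on the control arrays. The array with high IFIT1, OAS1 and IRF1 was the array with the lowest WARS1, by both WARS1 probe sets. That array was also the lowest of the 6 for 15 of 16 cytosolic enzymes. Their median on it was -0.40 from the control mean, beside -0.44 for WARS1, so the low value was not particular to WARS1. A link to interferon was not tested. OAS1 had an adjusted p of 0.259 in limma for PIAS3 against control.

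**Figure D4:**
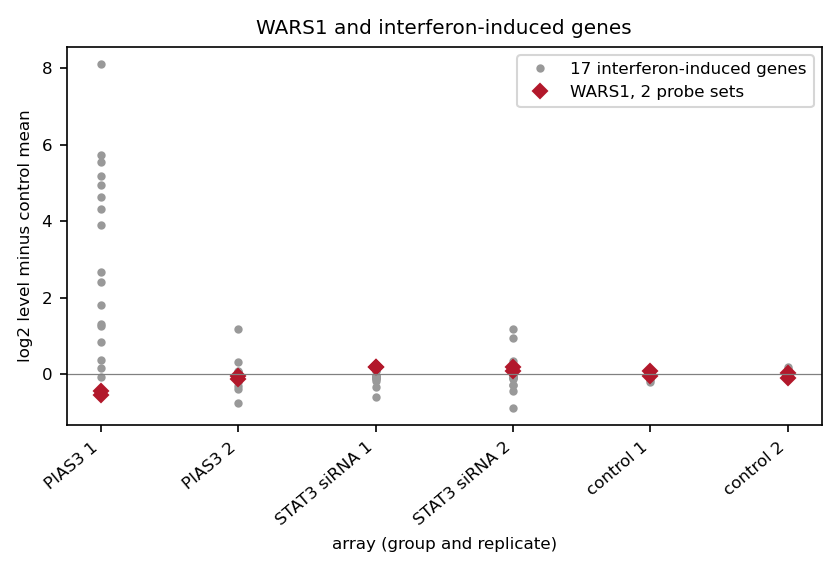
Log2 difference from the control mean of WARS1 and of the interferon-induced genes on each array, with PIAS3 arrays left of siRNA and control arrays. On PIAS3 replicate 1 the median interferon gene is 2.69 above the control mean while WARS1 is 0.44 below it, and on PIAS3 replicate 2 both lie near 0. The median of the 16 cytosolic enzymes on PIAS3 replicate 1, not drawn here, is -0.40.

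The amino acid response is the program through which ATF4 raises synthetase and amino acid synthesis genes. Of its 28 listed genes other than synthetases, 26 were measured and 0 passed the adjusted threshold in either comparison with control. In PIAS3 cells 17 of 26 lay above 0, with a median of 0.14, and 5 were higher and 3 lower at an unadjusted p under 0.05, against 7.13% and 7.44% of all genes. In siRNA cells 19 of 26 lay above 0, with a median of 0.18, and 2 were higher and 3 lower, against 2.32% and 3.06% of all genes. By array the median was -0.01 and 0.23 on the PIAS3 arrays and 0.10 and 0.16 on the siRNA arrays, against 0.02 and -0.02 on the control arrays. The median of this list in PIAS3 cells lay above 0, and that of the cytosolic synthetases, at -0.23, below it. These group medians drew on different arrays. The cytosolic synthetases were at -0.40 on PIAS3 replicate 1, where this list was at -0.01. They were at -0.04 on PIAS3 replicate 2, where this list was at 0.23.

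The members of that program with the smallest p went both ways. In PIAS3 cells STC2, a secreted glycoprotein, gave -0.72 ± 0.12, the cysteine-making enzyme CTH gave 1.14 ± 0.21, DDIT4, an inhibitor of mTORC1, gave 0.53 ± 0.10 and the transcription factor CEBPB gave 0.88 ± 0.17 (SE), with adjusted p-values of 0.0792, 0.0973, 0.0973 and 0.104 in limma. In siRNA cells the stress factor ATF3 gave -2.50 ± 0.47, STC2 -0.59 ± 0.12, CTH 0.70 ± 0.21 and the serine-making enzyme PHGDH 0.81 ± 0.30 (SE), with adjusted p-values of 0.442, 0.495, 0.878 and 0.9998. ATF4 itself read 11.42 and 11.51 on the PIAS3 arrays and 11.03 and 11.60 on the siRNA arrays, against 11.48 and 11.30 on the control arrays, so its groups overlapped. ATF4 is controlled largely through its translation, which an array does not measure.

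Chosen after their values were seen, 3 other genes of the program also split the PIAS3 arrays. ASNS, which makes asparagine, read 9.86 and 11.28 on the PIAS3 arrays and 11.17 and 11.23 on the siRNA arrays, against 10.47 and 10.38 on the control arrays. PSAT1, of serine synthesis, read 8.84 and 10.45 on the PIAS3 arrays and 10.72 and 10.59 on the siRNA arrays, against 9.91 and 10.15 on the control arrays. EIF4EBP1, an inhibitor of cap-dependent translation, read 9.96 and 10.93 on the PIAS3 arrays and 11.03 and 10.98 on the siRNA arrays, against 10.67 and 10.64 on the control arrays. Each lay below both control arrays on PIAS3 replicate 1 and above both on the other 3 transfected arrays, so a group mean for PIAS3 describes neither array.

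The cytosolic synthetases with and without the composite element in their promoters were also set side by side. On PIAS3 replicate 1 the median was -0.41 for the 6 with it and -0.38 for the 7 without it. On PIAS3 replicate 2 it was 0.05 and -0.04, and on the siRNA arrays it was 0.01 and 0.13 with the element and 0.01 in both arrays without it. As group differences between PIAS3 and control cells, the medians were -0.12 with the element and -0.23 without it. LARS1, VARS1 and YARS1 had no promoter entry and are in neither set. On PIAS3 replicate 1 they lay at -0.23, -0.72 and -0.72 from the control mean. Both sets had low medians on that array, and any part of the element in this was not tested.

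A further list held genes that sense uncharged transfer RNA or carry transfer RNA out of the nucleus, 13 of 15 of which were measured, with 0 past the adjusted threshold. In PIAS3 cells 4 of 13 lay above 0, with a median of -0.24, and 1 was higher and 3 lower at an unadjusted p under 0.05, against 7.13% and 7.44% of all genes. EIF2AK3, the kinase PERK of the endoplasmic reticulum, gave 0.41 ± 0.14, and EIF2S1, the eIF2alpha subunit that such kinases phosphorylate, gave -0.37 ± 0.14 (SE), with adjusted p-values of 0.251 and 0.301 in limma. IMPACT, an inhibitor of the kinase GCN2, gave -0.41 ± 0.14, and EIF2B1, a subunit of the eIF2 exchange factor, gave -0.30 ± 0.11 (SE). In siRNA cells the list's median was -0.05.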

How the data were processed

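Gene expression of A549 cells was measured on 6 Affymetrix arrays, 2 per group, grouped by their titles. The deposited values are log2 signals of probe sets, which the authors made with RMA (no version stated) per the submitters' processing notes. RMA normalizes across arrays, so levels are relative and small changes of dim probe sets are compressed. The number of arrays limits the precision. The array annotation was dated 2016, and no build or version number for it was given in the sources used here. Promoter sequences and coordinates are on GRCh38.p14. Of 22277 probe sets, 62 array controls were left out and 22215 tested. Of these, 19064 had 1 symbol, 1043 several and 2108 none. The members, the gene lists and the tests were chosen with earlier results of these data known.

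R 4.3.3 and limma 3.58.1 fitted 1 mean per group over all 6 arrays (lmFit, then eBayes, two-sided tests, 3 residual degrees of freedom), with Benjamini-Hochberg adjustment over all probe sets and a threshold of 0.05. The fit was also run on simulated data with equal spread on all arrays and planted changes larger than those of any member. That run does not bear on differences of the members' size or on an array that stands apart. Lists were described by counts and medians, with no test. Values of every array are given for WARS1, scaffold proteins and members with an unadjusted p under 0.05 against control whose arrays did not overlap. From other lists, at most 4 genes with the smallest p are named per comparison, except where stated. The comparisons with control share the control arrays. Alternatives were quantile and cyclic loess normalization, centring, filters, probe set rules, other tests, array weights, replicate blocks and leaving out arrays. Promoter sequences are RefSeq's, and Python 3.11.15 with matplotlib 3.10.9 made the figures.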

Additional observations from a re-analysis of the deposited data

How the results depend on the processing

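No member passed the adjusted threshold in any comparison under the 13 alternatives that kept all arrays. The PIAS3 arrays moved the synthetase differences in opposite directions. Without PIAS3 replicate 1 the gap between cytosolic and mitochondrial medians was -0.053 for PIAS3 against control and -0.040 for PIAS3 against siRNA, the cytosolic medians were -0.037 and -0.069, and the mitochondrial medians 0.016 and -0.029. Without PIAS3 replicate 2 the gap was -0.25 and -0.22, the cytosolic medians -0.40 and -0.44, and the mitochondrial medians -0.15 and -0.22. With 1 array left out at a time, the median of the cytosolic differences minus that of the mitochondrial ones lay between -0.25 and -0.053 for PIAS3 against control (-0.17 with all arrays), between -0.22 and -0.040 for PIAS3 against siRNA (-0.14) and between -0.02 and 0.04 for siRNA against control (0.00). Over the same settings the cytosolic median lay between -0.40 and -0.037, between -0.44 and -0.069 and between 0.00 and 0.04 in these comparisons. The mitochondrial median lay between -0.15 and 0.016, between -0.22 and -0.029 and between -0.02 and 0.06. The count of members past the threshold lay between 0 and 3, between 0 and 2 and at 0. Without PIAS3 replicate 2 the differences against siRNA were -0.73 for VARS1, by its brightest probe set, and -0.85 for YARS1. Cyclic loess normalization brought the cytosolic median of PIAS3 against control to -0.15 and the gap to -0.09, and a further quantile normalization gave -0.18 and -0.11; the cause was not tested. Under cyclic loess 14 of 16 cytosolic enzymes on PIAS3 replicate 1 still lay below both control arrays, where 38.5% of all genes did. Replicates sharing a number had correlations of -0.05, 0.09 and -0.06 in their deviations from the group means, so numbers were not taken to pair the arrays. A fit with the replicate block left 0 members past the threshold and the gap at -0.17, 0.00 and -0.14 in the 3 comparisons. Over all alternatives TARS1 ranged from -0.78 to -0.30 and RARS1 from -0.40 to -0.28 in PIAS3 cells against control, with adjusted p-values of 0.0251 to 0.823 and 0.114 to 0.890. Of 1470 alternative values of single members, 64 changed sign without being called in either setting, and 5 were newly called. The alternatives without RARS2 (-0.16 as the gap) and without GARS1 and KARS1 (-0.17) were chosen after seeing the data. The 40th percentile filter kept 25 of the 26 members.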

Other observations

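Factors that use charged transfer RNA were measured alongside the synthetases. Of 24 listed mitochondrial translation genes, 21 were measured, and in PIAS3 cells against control 16 of them lay below 0, with a median of -0.13. At an unadjusted p under 0.05 none was called in limma, against 7.44% of all genes lower, and none passed the adjusted threshold. By array the median was -0.25 and 0.04 on the PIAS3 arrays and 0.06 and 0.04 on the siRNA arrays, with 17 of 21 below both control arrays on PIAS3 replicate 1, against 43.8% of all genes and 60.1% of those in the level range of the cytosolic synthetases. In that level range the median was -0.13 on PIAS3 replicate 1.

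Of 8 cytosolic elongation factors 5 were measured, with a median of -0.01 in PIAS3 cells against control. EEF1A2, an isoform of the factor that brings charged transfer RNA to the ribosome, read 10.18 and 10.84 on the PIAS3 arrays and 11.10 and 10.70 on the siRNA arrays, against 11.40 and 11.25 on the control arrays. Its difference in PIAS3 cells was -0.81 ± 0.23 (SE), with an adjusted p of 0.193 in limma. EIF5A read 10.93 and 11.48 on the PIAS3 arrays and 11.89 and 11.72 on the siRNA arrays, against 11.60 and 11.94 on the control arrays, a difference of -0.57 ± 0.20 (SE) with an adjusted p of 0.275. Of 15 other genes for charging transfer RNA, 4 were measured, and all 4 lay below both control arrays on PIAS3 replicate 1, where 43.8% of all genes did. Their median was -0.16 on PIAS3 replicate 1 and 0.05 on PIAS3 replicate 2.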
